A study of Schizosaccharomyces pombe with 8 samples.

Results

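The genes described here lie at the 2 ends of chromosome II of the fission yeast Schizosaccharomyces pombe. They were chosen by the clone prefix of their systematic ID (SPBC1348, SPBPB21E7, SPBPB10D8 and SPBC359 on the left, SPBPB2B2 and SPBCPT2R1 on the right), which gave 54 of the 5129 listed genes. The hexose transporter gene SPBC1348.14c was left out by the rule. All 54 were placed on chromosome II in the reference annotation, 32 on the left and 22 on the right. In chromosome order they are the listed genes 1 to 12 and 19 to 38 from the left end, and 1 to 22 from the right end. The 6 genes of clone SPBC359 lie beyond 100 kb of the left end in that reference and are the innermost members of the left side.

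Poly(A) RNA was sequenced in 8 libraries, 2 in each of 4 groups, from cultures in a rich medium. The groups are labelled WT, seb1-1 (a mutant allele of the gene for the RNA-binding protein Seb1), epe1KO and epe1KO_tfs1DN. The last 2 are both labelled as deletions of epe1, whose level is given with their comparison. By the study, tfs1DN is a form of the elongation factor TFIIS altered at its catalytic acidic residues. It was placed under the thiamine-repressible nmt1 promoter at leu1 and expressed beside wild-type tfs1. In thiamine, most tfs1 transcripts came from the wild-type allele. The sequenced epe1KO_tfs1DN strain was a single isolate, which by the study carried an ectopic region of heterochromatin. Traits of the isolate and of tfs1DN cannot be told apart. The study's design gives 2 comparisons, seb1-1 against WT and epe1KO_tfs1DN against epe1KO. For each, a result table was deposited with a mean over the 4 libraries of the pair and the test between the groups. No value per library is in these tables, so neither the depth of a library nor the overlap of the groups can be given, and a level is always the mean over a pair. The labels do not tell separate cultures from repeat libraries, so p-values measure the spread between libraries, which may be technical.

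Subtelomeres of fission yeast adjoin the telomere repeats and carry blocks of sequence shared between chromosome ends. Heterochromatin forms there through methylation of histone H3 at lysine 9 by Clr4, bound by Swi6, and is started both by the shelterin protein Taz1 and by the repeat-like sequence within the telomere-linked helicase genes such as tlh2. Epe1 counteracts such heterochromatin. Genes further in are often expressed weakly in rich medium, and many encode transporters, cell surface proteins or enzymes of nutrient use.

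Most of these genes were expressed weakly, and the outermost ones were at or near 0. The median of the 54 means was 8.24 normalized counts for WT with seb1-1, beside 872 over all listed genes. In the epe1KO pair these medians were 25.3 and 948. The 2 tables were normalized separately, so levels in different tables are set side by side as percentiles among all listed genes, and were not tested. For the 31 members without a near-identical copy (an annotated gene of nearly the same sequence) the medians were 80.8 and 200.4, and for the 23 with one they were 0 and 0.603. The median percentile of the members was 3.2 in the WT and seb1-1 pair and 4.0 in the epe1KO pair. As a whole they accounted for 0.0303% and 0.111% of the summed means.

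The levels followed the order along the chromosome only in part. In the outermost clones, 10 of 12 SPBC1348 genes and 5 of 5 SPBCPT2R1 genes had a mean under 10 normalized counts in WT with seb1-1. In the epe1KO pair these counts were 9 of 12 and 5 of 5. The outermost listed gene on the left, SPBC1348.15, was listed at 0 in both tables. The outermost on the right, the helicase gene tlh2, had means of 6.43 and 4.77. By contrast, 0 of 6 SPBC359 genes were under 10 in either table, with medians of 321 and 463.

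**Figure D1:**
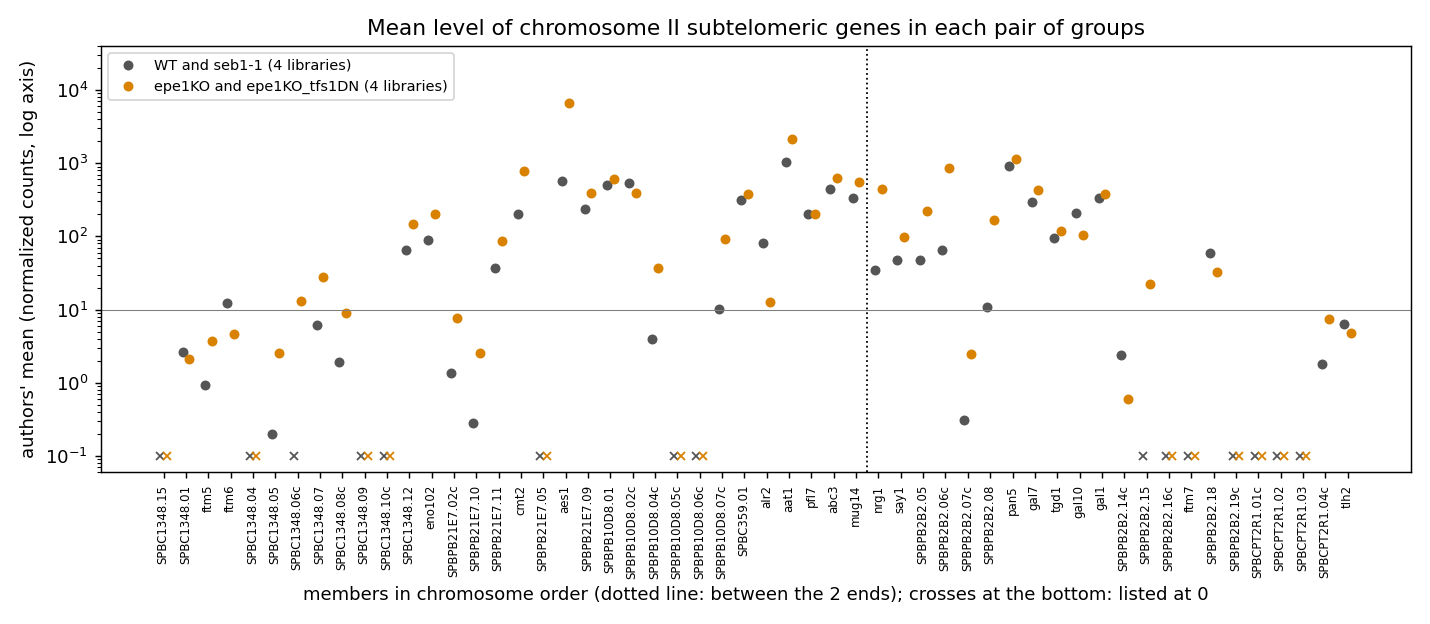
Authors' mean in normalized counts (log axis) of each member in chromosome order, for the WT and seb1-1 pair and for the epe1KO pair; crosses at the bottom mark genes listed at 0. The members of clones SPBC1348 and SPBCPT2R1 sit mostly below the grey line at 10, and aes1 has the highest mean in the epe1KO pair, 6632.

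Part of this pattern concerns genes whose reads cannot be assigned with certainty. By the reference transcripts, 23 members had a near-identical copy, that is, another annotated gene at 95% identity or more over at least 80% of the transcript, and 28 shared at least a stretch of 200 bases at that identity. Of the 15 members listed at 0 in the WT and seb1-1 pair, 13 had such a copy, and of the 13 listed at 0 in the epe1KO pair, 11 had. The sources used here do not say how reads with several matches were counted, so a listed 0 does not show that the gene was silent. The membrane transporter genes SPBPB10D8.04c to SPBPB10D8.07c are tandem copies that are identical where aligned. The inner pair of this array was listed at 0 in both tables. The flanking genes SPBPB10D8.04c and SPBPB10D8.07c had means of 3.93 and 10.05 in the WT and seb1-1 pair and of 37.1 and 92.4 in the epe1KO pair. The genes SPBC1348.06c on the left and SPBPB2B2.15 on the right, which encode proteins with a Vel1p domain, are likewise identical copies. Both were listed at 0 in the WT and seb1-1 pair, and their means in the epe1KO pair were 12.9 and 22.5.

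Per kilobase of transcript, the most abundant members of the WT and seb1-1 pair were pan5, aes1 and aat1. The gene pan5 encodes 2-dehydropantoate 2-reductase of pantothenate synthesis, and stood at 615 normalized counts per kb. The gene aes1, annotated as a phenazine biosynthesis family protein, stood at 480 and the amino acid permease gene aat1 at 440. In the epe1KO pair the order was aes1 at 5625 normalized counts per kb, aat1 at 904, pan5 at 766 and the catechol O-methyltransferase gene cmt2 at 740. The order of neighbours such as pan5 and cmt2 has no error here, since the tables give no spread per library.

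Several members stood far higher among all genes in the epe1KO pair than in the WT and seb1-1 pair. Among the 26 members with a mean of at least 10 in both tables, the percentile of aes1 went from 35.2 to 91.8. This gain of 56.6 percentile points was larger than that of 99.9% of all genes that met the same minimum. The phosphoprotein phosphatase gene SPBPB2B2.06c went from percentile 7.0 to 45.9, cmt2 from 13.5 to 41.7, aat1 from 56.2 to 77.8 and the amino-acid permease gene nrg1 from 5.3 to 20.6. The arylsulfatase gene SPBPB10D8.02c went the other way, from 33.7 to 18.1, and so did gal10, the epimerase gene of galactose use, from 13.8 to 7.5. In all, 17 of these 26 members had a higher percentile in the epe1KO pair and 9 a lower one. Over all 54 members 28 were higher and 26 lower, and 13 of the 54 were listed at 0 in both tables. Of all 5129 listed genes 2632 were higher and 2480 lower. The median gain of the 26 was 2.1 percentile points, beside 0.2 over the 4936 genes that met the same minimum. For the 28 such genes within 100 kb of the ends of chromosome I it was -0.7. The pairs differ in strains, in libraries and in the separate normalization, which cannot be told apart, and each mean includes both groups of its pair.

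**Figure D2:**
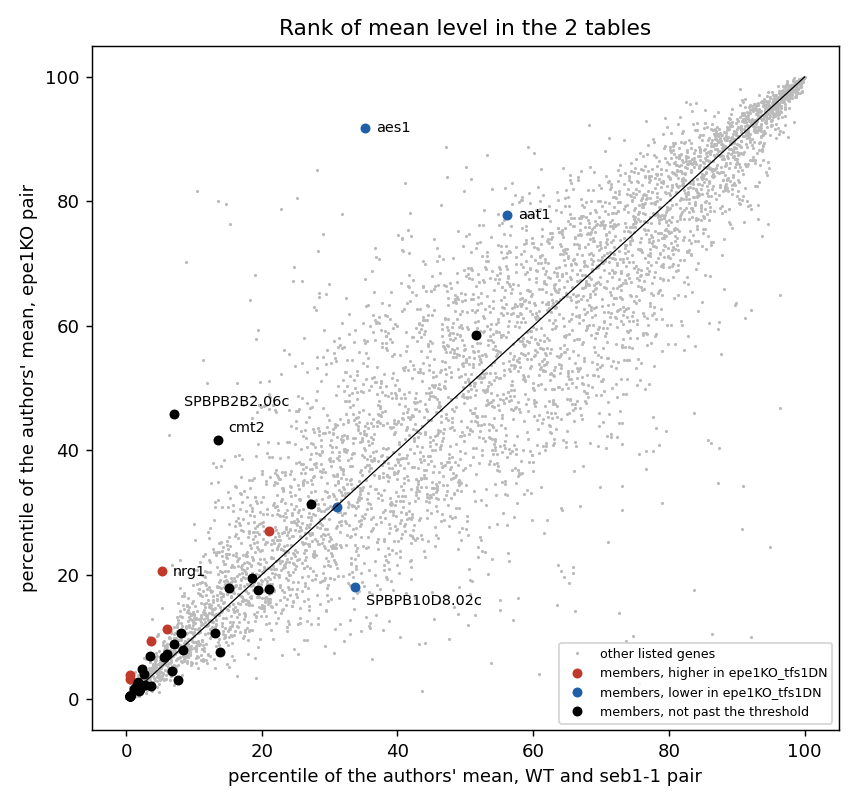
Percentile of the authors' mean of each listed gene in the WT and seb1-1 pair (horizontal) and in the epe1KO pair (vertical), with members coloured by the outcome of the epe1KO_tfs1DN comparison. The gene aes1 lies at 35.2 and 91.8, far above the diagonal, and most members lie in the lower left corner.

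The first comparison asked which transcripts differ in seb1-1. No member passed at an adjusted p below 0.01, the level used throughout. These values are the deposited two-sided Wald tests of DESeq2, adjusted by the Benjamini-Hochberg method over all genes past a filter on low counts. Of the 54 members 27 had an adjusted p, and 0 passed, where 0.483% of 4972 genes did. At an adjusted p below 0.05 the count of members was also 0, beside 1.19% of all genes. For 27 genes a count of 0 is near both shares, so it says little about the members. At an unadjusted p below 0.05 in the same test there were 8 of 39 members with a fold change, 6 lower and 2 higher, beside 9.29% of all genes. Fold changes in these tables were shrunk toward 0 by a prior, most of all for genes with few counts. Their median was -0.05 over the 39 members and -0.03 over all genes. With an SE of 0.36 in the median over tested members, the 95% intervals of 12 of the 27 lay between a halving and a doubling of the transcript. The intervals of the other 15 reached past a 2-fold difference in at least one direction, and 8 of these 15 left out 0.

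The largest of these 8 values was that of SPBPB2B2.18, an uncharacterized gene near the right end, at 1.25 (SE 0.36, adjusted p 0.0501 from DESeq2) and a mean of 60 normalized counts. It shares a stretch of at least 200 bases with another gene. The gene ftm6 near the left end, which encodes a protein with a transmembrane helix and has a copy at 98.6% identity on chromosome I, was at 1.15 (SE 0.38, adjusted p 0.105) and a mean of 12.3. The lowest value was that of pfl7, a gene for a cell surface glycoprotein of the DIPSY family, at -1.01 (SE 0.34, adjusted p 0.111) and a mean of 199.5. The enolase gene eno102 was at -0.90 and its near neighbour SPBPB21E7.11 at -0.92, with adjusted p of 0.281 and 0.301. The alanine racemase gene alr2 was at -0.69 with an adjusted p of 0.504. None of these values passed after adjustment over all genes. The reductase gene pan5 was at 0.59, with an interval of -0.01 to 1.18.

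The other 2 of the 8 belong to the galactose genes, which lie in a row with tgd1 at the right end and encode the enzymes that convert galactose to glucose phosphate. In seb1-1 the uridylyltransferase gene gal7 was at -0.82 (SE 0.33, adjusted p 0.270) and the epimerase gene gal10 at -0.74 (SE 0.37, adjusted p 0.504). The galactokinase gene gal1 was at 0.11, with a 95% interval of -0.53 to 0.76. None of the 3 passed. On the other side of gal1, the uncharacterized gene SPBPB2B2.14c was at -0.08 with a mean of 2.39, below the filter. The transcript of gal10 overlaps that of tgd1, a nucleotide-sugar dehydratase gene on the opposite strand, over 3291 bases. The libraries were made with a kit that keeps strand, but the sources used do not say whether the counting did, and without strand, reads of these 2 genes cannot be told apart. The value of tgd1 was -0.03, with an interval of -0.74 to 0.68.

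The second comparison asked which transcripts differ between the libraries labelled epe1KO_tfs1DN and epe1KO. Here 10 members passed, 6 higher and 4 lower in epe1KO_tfs1DN. A positive value was read as higher in epe1KO_tfs1DN because a sheet of the study named in that order holds the same fold changes (1999 of 1999 rows compared were equal within 0.0001). The deposited mean of epe1 in this pair was 706 normalized counts, at percentile 37.1, beside percentile 43.0 in the other pair. Its log2 fold change between the 2 groups here was -0.06 (SE 0.15), so neither group held the reads alone. This level goes against a full deletion, so groups are named as labelled. Of the 54 members 30 had an adjusted p, and the 10 that passed were 33.3% of these, beside 4.58% of 4983 genes. In the single directions 2.37% of all genes rose and 2.21% fell. A fold change above 2-fold as well was reached by 2 members, aes1 and SPBPB10D8.02c, beside 0.522% of all genes. At an adjusted p below 0.05 there were 14 members, beside 9.19% of all genes, and at an unadjusted p below 0.05 there were 22 of 41, beside 20.6%. The Wald scores of this table had a spread of 1.48 over all genes, where 1 would be that of the standard normal. With scores divided by it, 3 of the 10 members passed, namely aes1, SPBPB10D8.02c and mug14. The other 7 had adjusted p from 0.0427 to 0.29. The share of all genes that pass with such scores was not counted. The median log2 fold change over the 41 members with a value was -0.04, beside 0.00 over all genes. The members that passed went in both directions, 6 higher and 4 lower.

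All 4 members that fell lie on the left side, and 3 of them within 4 adjacent listed genes, numbers 25 to 28 from the left end. The largest fall was that of aes1, at -1.22 on the log2 scale (SE 0.13, adjusted p 1e-18 from DESeq2) and a 95% interval of -1.47 to -0.97. Its mean over the 4 libraries was 6632 normalized counts, the highest of all members. The arylsulfatase gene SPBPB10D8.02c, whose kind of enzyme releases sulfate from aryl esters, fell by 1.10 on the log2 scale (SE 0.16, adjusted p 8.58e-10). Its neighbour SPBPB10D8.01, annotated as a cysteine transporter gene, fell by 0.73 (SE 0.16, adjusted p 0.000189). The transcripts of these 2 genes lie on opposite strands and overlap over 129 bases. The fourth gene of the row, the L-asparaginase gene SPBPB21E7.09, was at -0.11 with an interval of -0.42 to 0.20 and did not pass. It has a copy at 96.3% identity. Further in, aat1 fell by 0.66 (SE 0.13, adjusted p 2.83e-05).

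Of the 6 members that rose, 4 lie on the right side and belong to clone SPBPB2B2. With 18 members tested on the left and 12 on the right, 33.3% passed on each side. The median log2 fold change of tested members was -0.19 on the left and 0.43 on the right. A difference between the sides was not tested. The permease gene nrg1, listed gene 22 from the right end, was at 0.80 on the log2 scale (SE 0.16, adjusted p 5.17e-05 from DESeq2) and a mean of 443 normalized counts. The glutamine amidotransferase family gene SPBPB2B2.05 was at 0.75 (SE 0.18, adjusted p 0.00156) and a mean of 223. The uncharacterized gene SPBPB2B2.08 was at 0.74 (SE 0.20, adjusted p 0.00408) and a mean of 168. Between them SPBPB2B2.06c was at 0.42 with an interval of 0.08 to 0.76 and an adjusted p of 0.115, and the sterol deacetylase gene say1 at -0.32 with an interval of -0.70 to 0.07. Neither of these neighbours passed. All 12 tested members on the right had log2 fold changes between -0.45 and 0.80, and 0 of them passed as lower.

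The copies SPBPB2B2.15 and SPBC1348.06c both rose, at 0.79 (SE 0.19, adjusted p 0.00112) and 0.66 (SE 0.18, adjusted p 0.0045 from DESeq2). The 2 are identical to each other, and a near-identical gene, SPAC977.05c, lies at the end of chromosome I. Their values are therefore not independent and cannot be given to a single gene. Without members that have a near-identical copy, 8 of 25 tested members passed, or 32%, beside 4.58% of all genes. The sixth gene that rose was mug14, an adducin-related gene first named for its upregulation in meiosis and the innermost member of the left side, at 0.94 (SE 0.15, adjusted p 6.99e-08) and a mean of 546. All 10 members that passed overlap a gene annotated on the other strand, as do 27 of the 30 tested members and 90.5% of all tested genes matched to the reference.

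**Figure D3:**
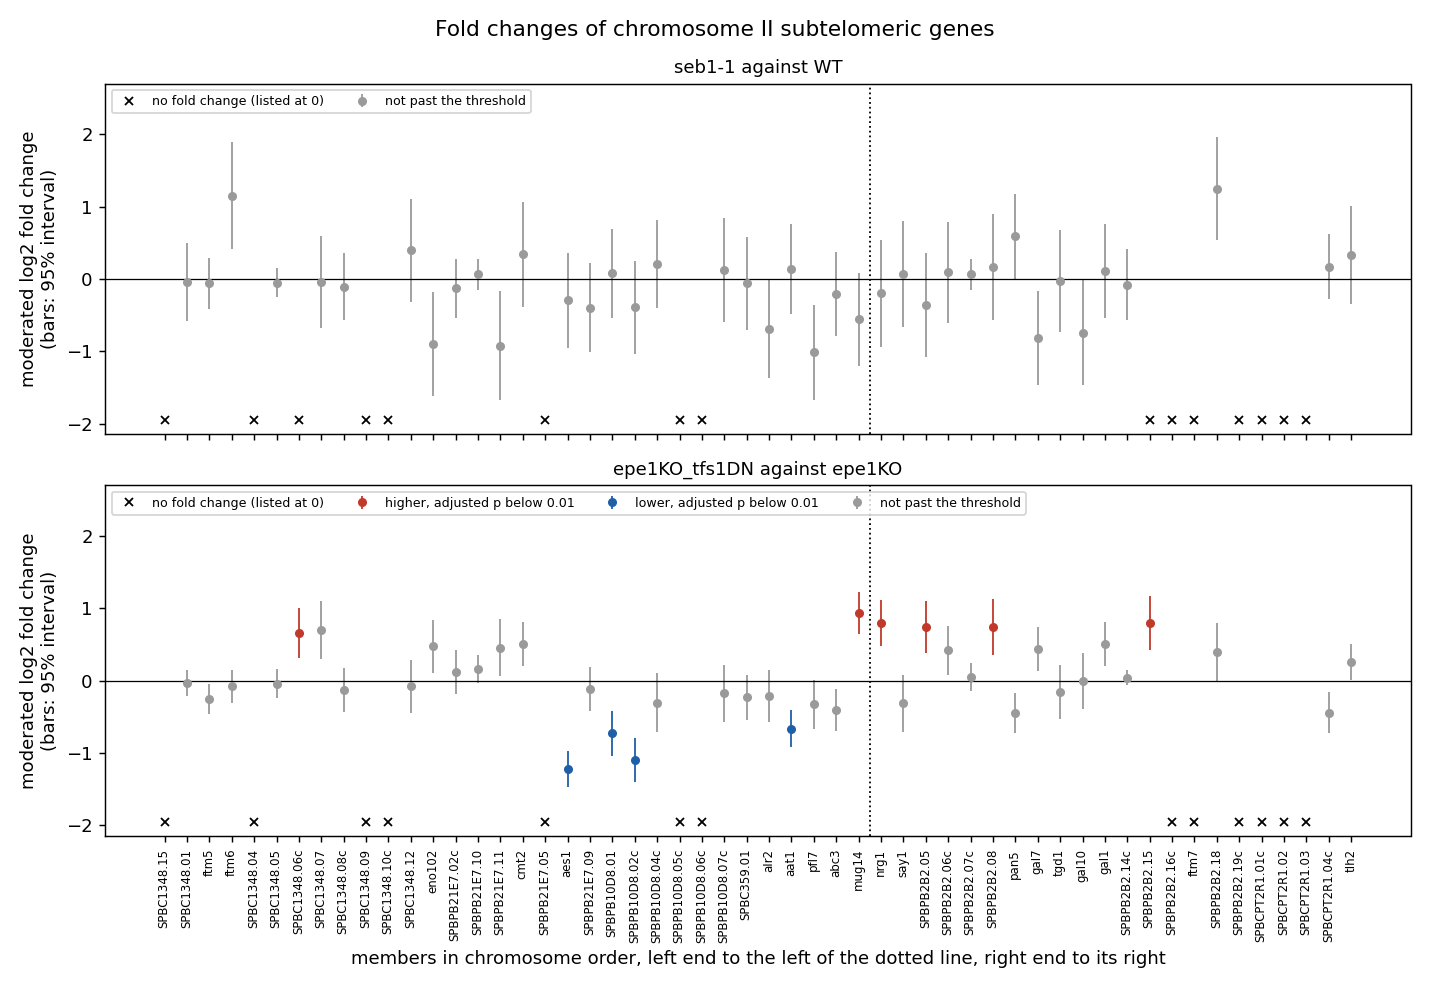
Moderated log2 fold change of each member with its 95% interval, in chromosome order, for seb1-1 against WT (top) and epe1KO_tfs1DN against epe1KO (bottom); crosses mark genes listed at 0, which have no fold change. In the top panel 0 members pass at an adjusted p below 0.01, and in the bottom panel 6 are higher and 4, on the left side, are lower.

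Other members came near the threshold in the epe1KO_tfs1DN comparison without passing it. SPBC1348.07 was at 0.70 (adjusted p 0.0131), cmt2 at 0.51 (0.0159), pan5 at -0.45 (0.0196) and gal1 at 0.50 (0.0208). These 4 are the members with an adjusted p between 0.01 and 0.05. The first is the gene to which SPBPB2B2.14c aligns as a copy, and SPBPB2B2.14c itself was at 0.04 without an adjusted p. The gene gal7 was at 0.44 with an interval of 0.13 to 0.75 and an adjusted p of 0.056, and gal10 at -0.01 with an interval of -0.40 to 0.38. The gene abc3, which encodes a membrane transporter of the ATP-binding cassette family, was at -0.41 (adjusted p 0.0582) and eno102 at 0.47 (adjusted p 0.0904). SPBCPT2R1.04c, near the right end, was at -0.44 with a mean of 7.48 and was below the filter on low counts, so it has no adjusted p. The helicase gene tlh2 was below it too, with log2 fold changes of 0.26 here and 0.33 in seb1-1. Its copy SPAC212.11 at the end of chromosome I is identical where aligned.

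The values of the same members in the 2 comparisons, which share no libraries, stand side by side as follows. The gene aes1 was at -1.22 in epe1KO_tfs1DN and at -0.29 in seb1-1, with an interval of -0.95 to 0.36 in the latter. SPBPB10D8.02c was at -1.10 and -0.39, SPBPB10D8.01 at -0.73 and 0.08, and aat1 at -0.66 and 0.14. The gene mug14 was at 0.94 in epe1KO_tfs1DN and at -0.56 in seb1-1, where its interval was -1.21 to 0.09. The permease gene nrg1 was at 0.80 and -0.20, SPBPB2B2.05 at 0.75 and -0.36, and SPBPB2B2.08 at 0.74 and 0.16. The median SE over tested members was 0.357 in seb1-1 and 0.175 in epe1KO_tfs1DN, and the difference between the comparisons was not tested.

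By kind of gene product, 14 members have the word permease, transporter or transmembrane in their annotated product, which leaves out abc3, and 10 of these have a near-identical copy. In epe1KO_tfs1DN, among the 6 with an adjusted p, 1 rose (nrg1) and 2 fell (aat1 and SPBPB10D8.01). Of all tested genes 2.37% rose and 2.21% fell. In seb1-1, 0 of the 6 with an adjusted p there passed, beside 0.483% of all genes, so this 0 says little. There 1 of 9 with a fold change, ftm6, had an unadjusted Wald p below 0.05, beside 9.29% of all genes. A list of 18 genes for telomere proteins and regulators of silencing includes taz1, clr4, swi6, clr3, sgo2 and the opposing factor epe1. Of these 18, 0 passed the DESeq2 test in either comparison, beside 0.483% of all tested genes in seb1-1 and 4.58% in epe1KO_tfs1DN. For 18 genes a count of 0 is near these shares. At an unadjusted p below 0.05 there were 0 of them in seb1-1, beside 9.29% of all genes. In epe1KO_tfs1DN there was 1, clr2, beside 20.6%. The 95% intervals of all 18 lay between a halving and a doubling in both.

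The 66 listed genes within 100 kb of the ends of chromosome I were counted in the same way. In the epe1KO_tfs1DN comparison 14 of the 36 tested there passed, 11 higher and 3 lower, which is 38.9%, beside 4.58% of all genes. In seb1-1 0 of 37 passed, beside 0.483% of all genes, and for 37 genes a count of 0 is near that share. At an unadjusted p below 0.05 there were 7 of 56, beside 9.29%. Their median percentile was 3.5 in the WT and seb1-1 pair and 3.4 in the epe1KO pair. Near-identical copies link both chromosomes, and a difference between them was not tested.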

How the data were processed

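The study aligned reads with TopHat and compared groups with DESeq2, per the labels on the build ASM294v2. Versions and the counting tool were not given in the sources used. Each row of a table holds a mean that the authors deposited, a signal in counts divided by size factors and averaged over 4 libraries. The authors also deposited a moderated log2 fold change with its SE, a Wald score (their quotient), and a p-value with its Benjamini-Hochberg adjusted p-value. These columns hold the study's own comparisons and are credited to its tables. They could not be refitted, since they hold no value per library.

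Of the listed IDs, 5111 matched the reference annotation of ASM294v3. It was used for symbols, products, gene order, transcript length, overlap and copies (blastn 2.17.0), and distance from chromosome ends. No coordinates of it are printed. Intervals (95%) reach 1.96 SE to either side of a fold change. The members and lists were chosen with earlier results of these data known. Members with full values are those past the threshold, then per comparison the 8 with the largest Wald scores, the 6 highest means, the galactose genes with neighbours, and the outermost genes. Alternatives were the threshold, the adjustment, the score's spread, copies, and position in place of clone. The adjustment was tested on simulated data. Tools were Python 3.11.15 with pandas 2.3.3 and scipy 1.17.1.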

Additional observations from a re-analysis of the deposited data

How the results depend on the processing

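In seb1-1, where 0.483% of all genes passed, a count of 0 among 27 tested members says little. That count of members past the threshold was 0 under all 6 alternatives run. For some of these a 0 was fixed in advance and shows nothing further. They are the subset without near-identical copies, the added fold change requirement, and scores divided by their spread of 1.01, which raises every p. In epe1KO_tfs1DN the count of 10 became 3 when Wald scores were divided by their spread, which by construction raises every p, and 2 when a log2 fold change above 1 in size was also required. It was 14 at an adjusted p below 0.05, beside 9.19% of all genes, and 10 with the adjustment over every gene with a p-value. Without near-identical copies it was 8 of 25 tested members, or 32%. Among the 58 genes listed up to 100 kb from either end of chromosome II it was 9 of 33 tested, or 27.3%. Both shares stand beside 4.58% of all genes. Of the 10 genes, 7 lost significance with the scaled score, and 0 with the other adjustment. The share of all genes passing with the scaled score was not counted. Median log2 fold changes ranged from -0.06 to 0.06 in seb1-1 and from -0.04 to 0.05 in epe1KO_tfs1DN. Their sign depended on the set of genes used, and the uncertainty of a median was not estimated. No paired analysis was possible because the tables hold no value per library, and no library could be left out for the same reason. Depth per library is unknown, and members under the authors' filter on low counts (27 and 24 of 54 without an adjusted p) were not tested.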
